A study of Mus musculus with 3 samples.

Results

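The wells described here held single cells of the uncultured E11.5 mouse kidney that carried transcripts of the nephron progenitor genes Six2, Eya1 and Uncx and few transcripts of genes switched on at nephron induction or in epithelium. Of 337 kept wells of the uncultured plate, 66 met the rule, which is 19.6% (95% exact binomial interval 15.5% to 24.2%), and they were 66 of 837 kept wells on the 3 plates of the series. A well was kept when it was not labelled as a control, had at least 1000 transcript counts of nuclear-encoded genes and had at most 30% mitochondrial counts. An uninduced well had Six2, Eya1 and Uncx together at 6 or more per 10000 counts, under 3 counts of Epcam, Cdh16 and Cldn6 together, and at most 1 count of Wnt4, Pax8 and Lhx1 together. The other kept wells of the plate formed 3 classes by the same genes. They were 54 induced wells, which passed the first 2 limits but had 2 or more counts of Wnt4, Pax8 and Lhx1, 23 epithelial wells with 3 or more counts of Epcam, Cdh16 and Cldn6, and 194 remaining wells under the Six2, Eya1 and Uncx limit.

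The study profiled embryonic kidney cells of mice with a reporter at Lgr6, which encodes a receptor for R-spondins in the Wnt pathway. The assay was SORT-seq, which sorts 1 cell into each of the 384 wells of a plate and counts each captured transcript a single time by its molecular identifier. The uncultured plate held E11.5 kidney cells of C57BL/6 mice with the LGR6-EGFP-IRES-CreERT2 allele, which drives a green reporter and an inducible Cre from Lgr6. The other plates, from C57BL/6 mice that carried a ROSA26-tdTomato reporter beside that allele, held cells of E12.5 and E11.5 kidneys kept as explants in culture medium with serum for 5 days at E12.5 and, at E11.5, for 7 days by the title or 5 days by the stage label. Neither the number of embryos behind a plate nor the gate of the sort is stated in the labels. Since a group was 1 plate and cells are not replicates, no test was possible, and every interval below covers counting error only.

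Nephron progenitors form the cap mesenchyme around the tips of the ureteric bud. Six2, with Eya1, Osr1, Sall1, Wt1 and Pax2, keeps them able to renew, and they release Gdnf, which drives branching of the bud through the receptor Ret. Cited1 and Meox1 mark the least committed cells of the cap. On a Wnt signal from the bud, progenitors switch on Wnt4, Fgf8, Pax8 and Lhx1, become the pretubular aggregate and turn into epithelium.

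The 3 genes that chose the wells are given first, as a description. Levels are pooled over the wells of a class and scaled to a library of 1e+06 nuclear-encoded counts (CPM), with the exact 95% Poisson interval in parentheses. The sum of Six2, Eya1 and Uncx in the 66 uninduced wells had a lowest value of 6.42, a median of 14.4 and a highest value of 44.0 per 10000 counts. All 3 genes were found in 46 of these wells, 2 of them in 10 wells and 1 of them in 10 wells. Six2, a homeodomain factor, stood at 685 CPM (615 to 761) in the uninduced wells, 536 CPM in induced wells, 339 CPM in epithelial wells and 39.3 CPM in remaining wells. Eya1, its transcriptional partner, stood at 384, 338, 253 and 39.9 CPM in the same order, and Uncx, a homeodomain factor, at 522, 581, 424 and 49.7 CPM. The 3 wells just inside the limit had 6.42, 6.91 and 6.93 per 10000, and the highest 3 wells just outside had 5.92, 5.73 and 5.29. Of the 66 wells, 38 had no count of Wnt4, Pax8 or Lhx1 and 28 had 1, while 60 had no count of Epcam, Cdh16 or Cldn6 and 6 had 1.

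Depth sets how firmly a well is placed. The uninduced wells had a median of 6265 counts (1018 to 27742), close to the 6286 of remaining wells and below the 11700 of induced and the 16646 of epithelial wells. In 4 uninduced wells the rule rested on 1 count and in 9 on 2 counts, all of them in wells with at most 3114 counts, and the other 53 had at least 3. The 15 wells labelled as controls had a median of 632 counts and a highest of 2196, and 5 of the 7 control wells with at least 1000 counts also met the rule. Of the 66 uninduced wells, 12 were as shallow as the deepest control well or shallower. What the control wells held is not stated in the sources used here, and their part in the shallow uninduced wells was not tested. The share of mitochondrial counts had a median of 9.02% in uninduced wells and 7.06% in the other kept wells, and its part in the results was not tested. The uninduced wells were a similar share of the upper and lower rows, with 34 of the 166 kept wells in rows A to H and 32 of the 171 in rows I to P. Single rows differed in their share of uninduced wells. The part of plate position, by row or by column, in the contrast of uninduced with induced wells was not tested.

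**Figure D1:**
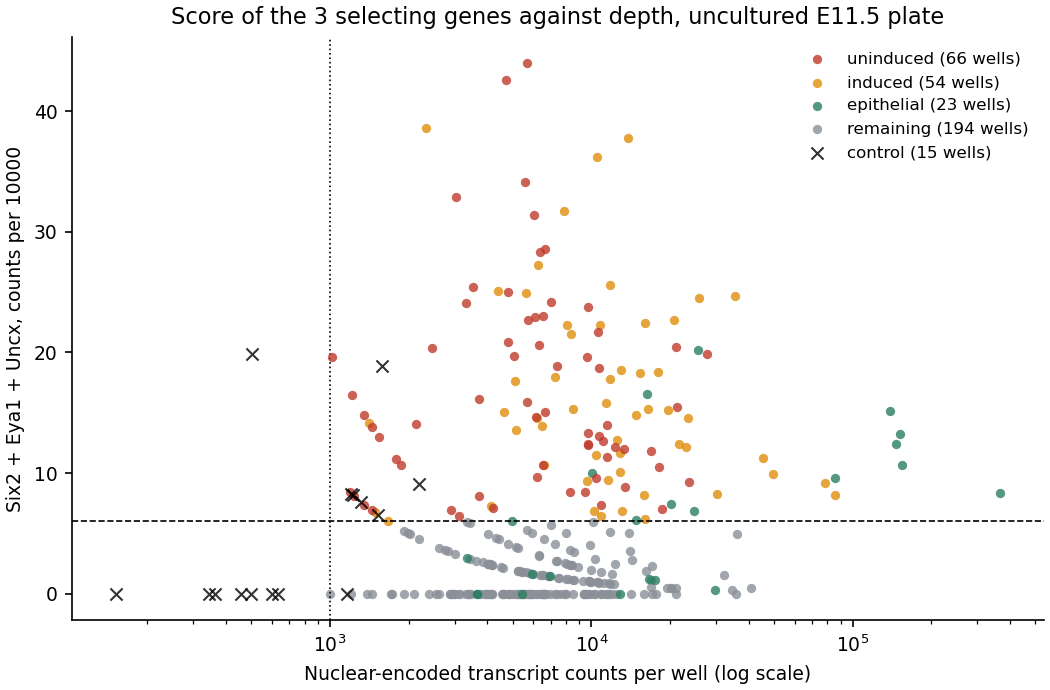
Each point is 1 well of the uncultured plate, with its nuclear-encoded counts on a log axis and the sum of Six2, Eya1 and Uncx per 10000 counts. The dashed line is the limit of 6 per 10000 and the dotted line the limit of 1000 counts, and the control wells, drawn as crosses, lie at or below 2196 counts. A single count passes the limit in wells of up to 1667 counts.

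In the plot of score against depth, uninduced and induced wells covered the same range of scores, while the induced wells lay further to the right. Along the left edge the points fall on curves, each made by wells with the same whole number of counts.

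3 of the 66 wells stood apart by the markers of another lineage. Well C9 had 47 counts of 9 of the 10 macrophage markers measured, 111 per 10000, and well D11 had 18 counts of 7 of the 10, 133 per 10000. Well P8 had 47.1 counts of Actc1, Myog, Myod1 and Tnnt1, markers of skeletal muscle, 151 per 10000. The rule rested on 3, 1 and 2 counts in these wells. In the other 63, macrophage and endothelial markers each reached at most 8.41 per 10000, skeletal muscle markers at most 19.6, neural and neural crest markers at most 20.3 and erythroid markers at most 13.9. Macrophage markers were at 0 in 41 of these 63 wells and endothelial markers in 40. Without the 3 wells, the Cited1 ratio to the other kept wells was 2.34 and the Meox1 ratio 1.73, against 2.30 and 1.74 with them.

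Progenitor genes that the rule did not use were higher in the uninduced wells than in the remaining wells and within 2-fold of the induced wells for most. Of the 24 nephron progenitor genes listed, 15 that are not part of the rule had at least 50 counts in the uninduced and remaining wells together, and 10 of them were at least 2-fold higher and none 2-fold lower, with a median log2 ratio of 1.49. Over all 7461 genes compared with the remaining wells, 2.44% were at least 2-fold higher, 10.3% at least 2-fold lower, and the median log2 ratio was 0.00. These genes come from the same wells that were chosen on Six2, Eya1 and Uncx, so the counts describe the wells and test nothing. Summed and pooled, 20 listed progenitor genes outside the rule stood at 52.5 per 10000 counts in uninduced, 53.0 in induced and 27.1 in remaining wells. The 15 control wells, whose content is not stated, had 50.8, so this level was not particular to the uninduced wells.

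Cited1, a transcriptional coregulator of the cap mesenchyme, stood at 139.8 CPM (109 to 176) in uninduced wells, 81.4 in induced wells, 105.5 in epithelial wells and 12.4 in remaining wells. Per well, it had a median of 0 and a highest value of 8.61 per 10000 counts in uninduced wells. The uninduced level was 11.25 times that of remaining wells (6.70 to 19.77), 1.72 times that of induced wells (1.22 to 2.42) and 2.30 times that of all other kept wells together (1.74 to 3.02). Epithelial wells held 30.4% of the counts of all kept wells. The last ratio was 4.27 once wells deeper than 3 times the median were left out, 3.52 with every well weighted equally, and 1.77 with a limit of 10 per 10000 in the rule. Cited1 was found in 23 of 66 uninduced wells (34.8%), in 19 of 54 induced wells, in 13 of 23 epithelial wells and in 18 of 194 remaining wells (9.28%). After thinning each well to 1000 counts the shares were 7.58%, 3.70%, 13.0% and 1.03%. The uninduced and remaining wells had nearly the same median depth, 6265 and 6286 counts.

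Meox1, a homeobox factor of the early cap, stood at 110.3 CPM (83.3 to 143) in uninduced wells, 76.8 in induced, 76.9 in epithelial and 45.1 in remaining wells. Its ratio to the remaining wells was 2.44 (1.69 to 3.53), and its ratio to the induced wells, 1.44 (0.99 to 2.08), had an interval that took in 1. It was found in 29 of 66 uninduced wells (43.9%) and in 38 of 194 remaining wells (19.6%), and after thinning in 10.6% and 4.12%. Meox2, its paralogue, showed a wider gap, with 114 CPM in uninduced wells, 71.0 in induced, 57.8 in epithelial and 13.1 in remaining wells, 8.73 times the remaining wells (5.17 to 15.32).

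Among the transcription factors that maintain the cap, Osr1, a zinc finger factor that acts before Six2 in this lineage, stood at 132 CPM in uninduced wells, 90.7 in induced, 83.3 in epithelial and 30.8 in remaining wells. Six2, a gene of the rule, was found with Osr1 in 29 uninduced wells and without it in 26. The 11 wells without Six2 had no Osr1 either, and a link between the 2 genes was not tested. Sall1, a zinc finger factor bound with Six2 at progenitor genes, stood at 209, 229, 163 and 43.8 CPM in the same order. Wt1, a zinc finger factor of the whole metanephric mesenchyme, was found in 62 of 66 uninduced wells, and had a median of 8.36 per 10000 in uninduced wells and 3.06 in remaining wells. Pooled, Wt1 stood at 819.7 CPM in uninduced, 904 in induced, 770.1 in epithelial and 449 in remaining wells. Pax2, a paired-box factor needed on both sides of induction, was lower than in induced wells, with 351 CPM (301 to 406) in uninduced and 514 CPM (467 to 564) in induced wells, a ratio of 0.68 (0.57 to 0.81), while remaining wells had 82.4 CPM.

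Surface and matrix genes of the cap followed the factors. Spock2, a secreted proteoglycan, stood at 419.5 CPM in uninduced wells, 335 in induced, 200.5 in epithelial and 41.9 in remaining wells, 10.02 times the remaining wells (7.54 to 13.46). Crym, a thyroid hormone binding protein, stood at 183, 128, 113.5 and 24.9 CPM. Itga8, the integrin of the mesenchyme that binds nephronectin on the bud, stood at 86.7, 89.6, 57.0 and 30.8 CPM. Gas1, a membrane protein that modulates growth factor signals, was among the most abundant of the list with 1161 CPM in uninduced wells, 893 in induced, 738 in epithelial and 505 in remaining wells.

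**Figure D2:**
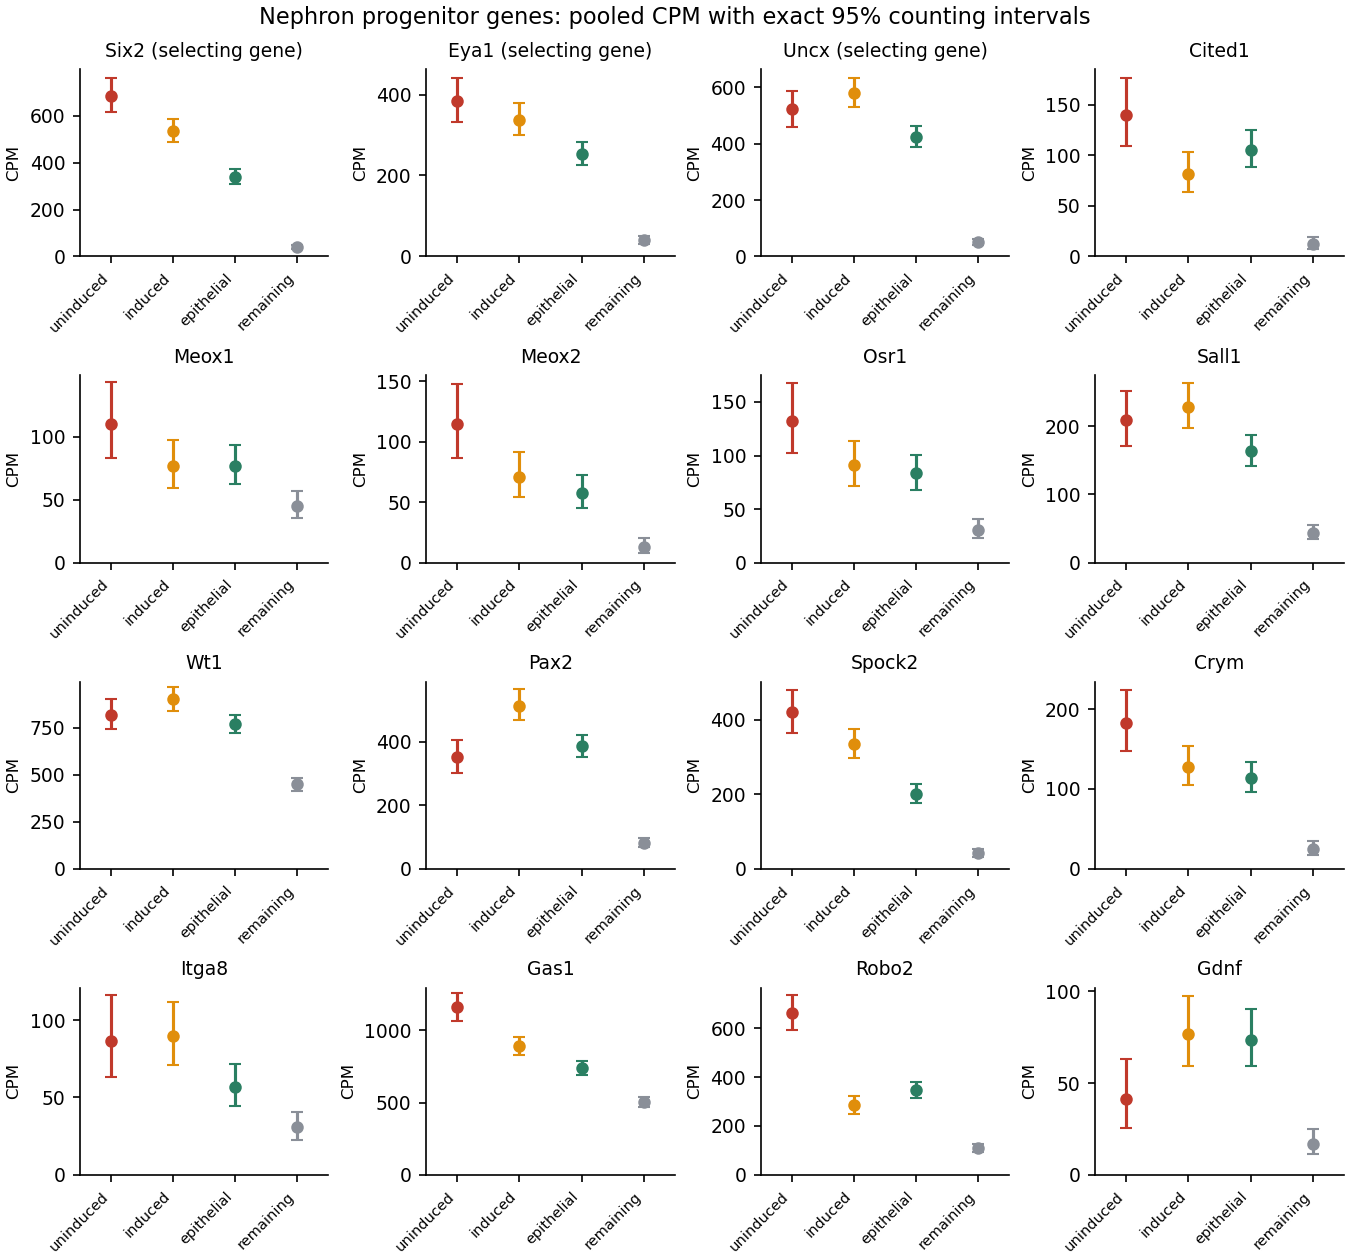
Pooled level of 16 nephron progenitor genes in CPM, with exact 95% counting intervals, in 66 uninduced, 54 induced, 23 epithelial and 194 remaining wells. Cited1, Meox2, Spock2 and Robo2 are highest in uninduced wells, Pax2 and Gdnf are highest in induced wells, and all 16 are lowest in remaining wells.

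The plot of these genes shows 2 shapes. Robo2, Spock2, Gas1 and Meox2 lie higher in the uninduced than in the induced class, whereas Pax2 and Gdnf lie lower. The counting intervals of the uninduced and induced classes did not meet for Robo2, Gas1 and Pax2, and those of Meox2, Spock2 and Gdnf overlapped.

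Signals between cap and bud were mixed in direction. Gdnf, the ligand of Ret, stood at 41.4 CPM (25.6 to 63.2) in uninduced wells, 76.8 (59.4 to 97.7) in induced wells, 73.7 in epithelial wells and 17.0 in remaining wells, and its ratio to induced wells was 0.54 (0.31 to 0.89). Robo2, the Slit receptor that limits where Gdnf is expressed, went the other way, with 661 CPM in uninduced wells, 285 in induced, 346 in epithelial and 109 in remaining wells, 2.32 times the induced wells (1.96 to 2.74) and 6.07 times the remaining wells (5.03 to 7.36). Per well, Robo2 had a median of 4.82 and a highest value of 27.9 per 10000 in uninduced wells, against 2.38 and 14.0 in induced wells, so the ranges overlap. After thinning the ratio of Robo2 to induced wells was 1.43. Gfra1, the Gdnf co-receptor, stood at 67.0 CPM in uninduced wells, 24.4 in induced wells, 62.5 in epithelial wells and 7.20 in remaining wells, 2.74 times the induced wells (1.55 to 4.97). With a limit on Wnt4, Pax8 and Lhx1 set per 10000 counts, described below, the Gfra1 ratio to induced wells was 1.78. Ret itself had 2 counts in the 66 wells.

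The list of fibroblast growth factor signalling holds ligands, receptors and other pathway genes. Of its 9 genes measured against induced wells, none passed 2-fold in either direction. Fgf8, a ligand with too few counts to be among them (3 and 26), had a ratio of 0.20 (0.04 to 0.64). Of its 11 genes measured against remaining wells, Fgf10, Fgfr1 and Etv4 were at least 2-fold higher and none lower. Across all genes in that comparison, 2.44% were higher and 10.3% lower. Fgf10, a ligand made by mesenchyme that acts on the bud, stood at 92.6 CPM in uninduced wells, 51.2 in induced wells and 11.1 in remaining wells, 8.32 times the remaining wells (4.69 to 15.46). Etv4, a transcription factor switched on by these signals, stood at 104 CPM in uninduced, 94.2 in induced and 17.7 in remaining wells. Fgfr1, a receptor of these ligands in the mesenchyme, stood at 526, 502 and 250.0 CPM in that order. Spry1, an inhibitor induced by the pathway, was lower than in induced wells, with 124 CPM in uninduced and 212 CPM in induced wells (ratio 0.59, 0.43 to 0.78). Bmp7, a ligand that keeps progenitors dividing and primes them for induction, stood at 132 CPM in uninduced, 135 in induced and 23.6 in remaining wells. Acvr2b, an activin and BMP receptor, stood at 124, 116 and 41.2 CPM. Of the 16 BMP, activin and TGF-beta genes measured against remaining wells, Bmp7 and Acvr2b were at least 2-fold higher. Another 2, Tgfb2 and Tgfbr2, were at least 2-fold lower, where 2.44% of all genes were higher and 10.3% lower. Against induced wells, 2 of the 14 measured BMP, activin and TGF-beta genes were at least 2-fold lower, Bmp2 and Smad6, an inhibitor of the pathway (ratio 0.47, 0.23 to 0.91), and none was higher, where 1.97% of all genes measured were lower and 0.942% higher.

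In the Wnt pathway, R-spondins are secreted proteins that strengthen Wnt signals through Lgr receptors. Of the 16 Wnt pathway genes measured against remaining wells, 3 were at least 2-fold higher, Rspo1, Rspo3 and Tcf7l1, and 2 lower, Fzd1 and Sfrp2. Their median log2 ratio was -0.05, and across all genes 2.44% were higher and 10.3% lower. Against induced wells, 1 of 16 was higher, Rspo3, and 1 lower, Fzd1, where 0.942% of all genes were higher and 1.97% lower. The Fzd1 ratio to induced wells was 0.49, and 0.81 without wells deeper than 3 times the median. Rspo2 had 0 counts in uninduced wells. Rspo1 stood at 80.8 CPM (57.9 to 109.5) in uninduced wells, 54.7 in induced and 8.51 in remaining wells. Rspo3 stood at 142 CPM (111 to 179) in uninduced wells, 69.8 in induced, 78.6 in epithelial and 28.1 in remaining wells, 2.03 times the induced wells (1.42 to 2.91) and 3.53 times with a limit of 10 per 10000 in the rule. Tcf7l1, the member of the TCF family best known as a repressor, stood at 563.5 CPM in uninduced, 424 in induced and 247 in remaining wells. Lgr4, the broadly expressed R-spondin receptor, stood at 88.6 CPM in uninduced, 89.6 in induced and 120.4 in remaining wells. Of the genes that Wnt signals switch on, Lef1 stood at 27.6 CPM in uninduced and 51.2 CPM in induced wells (0.54, 0.27 to 1.00), with 0.81 (0.41 to 1.48) for its ratio to remaining wells. Axin2, with 11 counts in uninduced and 21 in induced wells, had a ratio of 0.89 (0.39 to 1.92), Tcf7 of 0.33 (0.11 to 0.80) and Sp5, with 1 count in uninduced wells, of 0.12 (0.00 to 0.79). The 0 counts of Notum in 66 wells allow a level of up to 5.91 CPM, against 12.8 CPM in induced wells, so the ratio was at most 0.46.

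Lgr6 was found in 1 of 66 uninduced wells (1.52%, 0.04% to 8.16%), in 7 of 54 induced wells (13.0%, 5.37% to 24.9%), in 1 of 23 epithelial wells and in none of the 194 remaining or 15 control wells. All counts of Lgr6 were lost on thinning to 1000 counts, and the median depth of the uninduced wells was 6265 counts against 11700 in the induced wells. The 2 intervals of the shares overlap, which alone does not decide whether the shares differ. With unlike depths and 1 plate, a difference between the uninduced and induced wells was not tested. The ratio of Lgr6 levels, 0.24, had an interval of 0.01 to 1.88. The reporter sequence of the allele was found in 2 of 66 uninduced, 5 of 54 induced, 2 of 23 epithelial and 1 of 194 remaining wells.

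Against the induced wells, several induction genes outside the rule were lower and Dcx, Moxd1 and others were higher. Of 5731 genes with at least 50 counts in the 2 classes, 54 (0.942%) were at least 2-fold higher in uninduced wells and 113 (1.97%) at least 2-fold lower, with a median log2 ratio of -0.03, and the split by a limit per 10000 counts described below gave 93 higher and 90 lower. The lower set held Wnt4, Pax8 and Lhx1, which separate the classes and are no finding. Of the 8 other induction and early nephron genes measured, 5 were at least 2-fold lower and none higher, with a median log2 ratio of -1.61.

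Bmp2, a ligand, had the lowest named ratio, with 5.91 CPM (3 counts) in uninduced wells and 95.4 CPM in induced wells, a ratio of 0.06 (0.01 to 0.19). Greb1, an oestrogen-responsive gene, stood at 11.8 CPM in uninduced and 94.2 CPM in induced wells (0.13, 0.04 to 0.29). Jag1, the Notch ligand of the renal vesicle, stood at 13.8 and 73.3 CPM in uninduced and induced wells (0.19, 0.07 to 0.41), and Hey1, a Notch target, at 39.4 and 124.5 CPM (0.32, 0.19 to 0.51). Ccnd1, cyclin D1, stood at 124 CPM in uninduced and 367 CPM in induced wells (0.34, 0.25 to 0.44), and was found in 33 of 66 and 39 of 54 wells. Fgf8, the growth factor of the pretubular aggregate, was found in 3 of 66 uninduced and 17 of 54 induced wells.

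The other lower genes included matrix, adhesion and secreted proteins. Lama4, a laminin chain, stood at 33.5 CPM in uninduced and 155 CPM in induced wells (0.22, 0.12 to 0.36), and Lamb1, another laminin chain, at 70.9 and 173 CPM (0.41, 0.28 to 0.59). Frem2, a basement membrane protein of the Fraser complex that is needed for bud growth, stood at 35.5 and 77.9 CPM. Frzb, a secreted Wnt antagonist, stood at 9.85 CPM in uninduced and 61.7 CPM in induced wells. Pcdh19, a protocadherin, stood at 23.6 and 108 CPM, Emid1, an extracellular matrix protein, at 27.6 and 122 CPM, and Trim2, a ubiquitin ligase, at 43.3 and 165 CPM. Notch1 was also lower, with 23.6 CPM in uninduced and 62.8 CPM in induced wells (0.38, 0.18 to 0.71), but remaining wells had 74.6 CPM, and with every well weighted equally the ratio to induced wells was 0.84. In wells of 3000 to 20000 counts the ratios to induced wells of Emid1, Lama4 and Trim2 were 0.09, 0.13 and 0.14, while with every well weighted equally they were 0.18, 0.34 and 0.29.

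Genes higher in uninduced than in induced wells were led by Dcx, doublecortin, a microtubule-binding protein best known from migrating neurons. Dcx was found in 31 of 66 uninduced wells, 13 of 54 induced, 11 of 23 epithelial and 9 of 194 remaining wells, and stood at 144 CPM (113 to 181) in uninduced, 34.9 in induced, 59.4 in epithelial and 7.20 in remaining wells. Per well, Dcx had a median of 0 in both classes and reached 9.82 per 10000 in uninduced and 14.2 in induced wells, so the ranges overlap. Its ratio to induced wells was 4.12 (2.66 to 6.53) and its ratio to remaining wells 19.98 (10.53 to 41.77). Moxd1, a monooxygenase-like protein, stood at 154 CPM in uninduced and 52.3 CPM in induced wells (2.93, 2.01 to 4.34). Stc1, a secreted glycoprotein, stood at 86.7 and 30.2 CPM, Calcrl, the receptor for adrenomedullin and related peptides, at 110.3 and 44.2 CPM, and Met, the receptor of hepatocyte growth factor, at 72.9 and 30.2 CPM. Fat3, an atypical cadherin, stood at 80.8 CPM in uninduced and 29.1 CPM in induced wells, and Hmcn1, a matrix protein, at 142 and 58.2 CPM. Of the 12 named genes, 8 stayed at least 2-fold higher under every alternative that left at least 20 counts, and the exceptions, Met, Maml3, Calcrl and Gfra1, had ratios of 1.99, 1.86, 1.79 and 1.78 under the split described next.

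**Figure D3:**
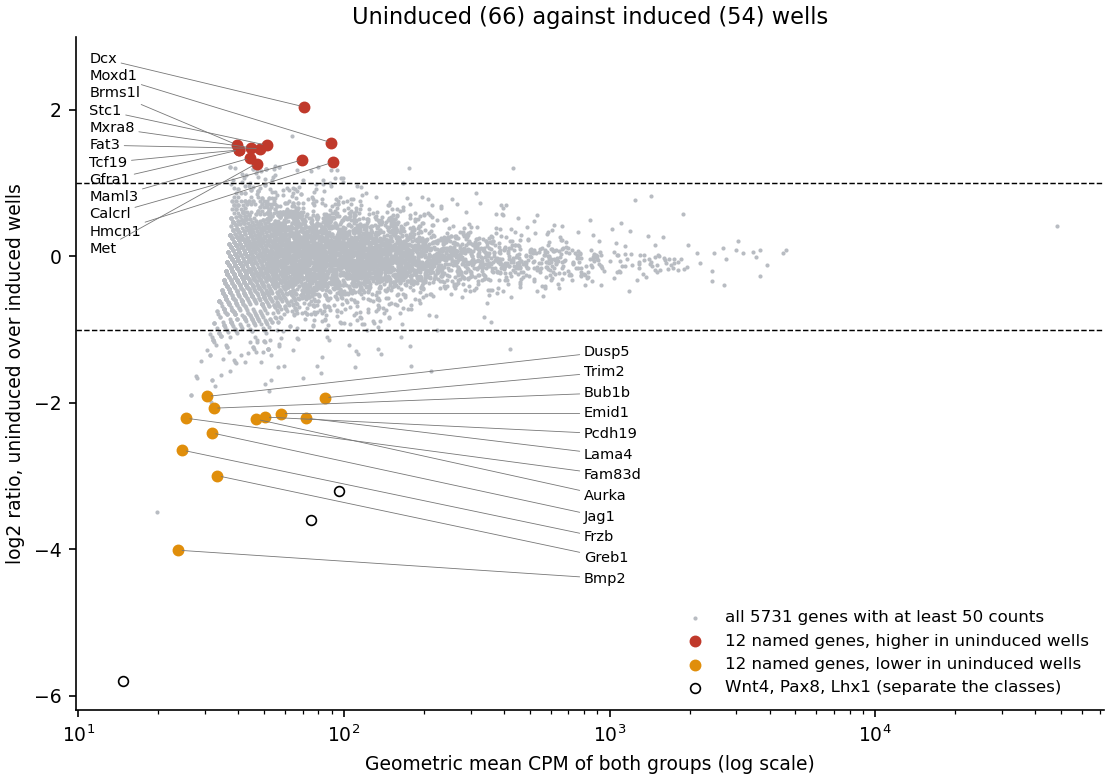
The log2 ratio of pooled CPM in 66 uninduced over 54 induced wells is plotted for 5731 genes against the geometric mean CPM on a log axis, with dashed lines at 2-fold. Dcx and Moxd1 lead the 12 named genes that were higher, Bmp2 and Greb1 the 12 that were lower, and Wnt4, Pax8 and Lhx1, drawn as open circles, separate the classes.

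In the plot of all genes Dcx alone of the named higher genes lay beyond 3-fold, whereas each of the 12 named lower genes did. Because a limit of 1 count lets shallow wells through more easily, the 2 classes were also split at 2 per 10000 counts of Wnt4, Pax8 and Lhx1, which gave 65 and 55 wells with median depths of 8302 and 8483 counts. Under that split 93 genes were at least 2-fold higher and 90 lower, Bmp2, Greb1, Jag1 and Ccnd1 had ratios of 0.07, 0.13, 0.10 and 0.27, and Dcx and Moxd1 of 3.76 and 3.13.

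Cell cycle genes differed in part by phase between the 2 classes. Of 26 proliferation genes, 7 were at least 2-fold lower in uninduced than in induced wells and none higher. The 26 genes had a median log2 ratio of -0.51, and across all genes measured 1.97% were lower and 0.942% higher. The 7 have known roles in late G2, mitosis or its exit: Ccnb1 and Ccnb2, mitotic cyclins, Aurka and Aurkb, mitotic kinases, Cdc20 and Ube2c, which help destroy cyclins, and Birc5, survivin. Ccnb1 stood at 106 CPM in uninduced and 300.4 CPM in induced wells (0.35, 0.26 to 0.48), Ube2c at 274 and 655 CPM (0.42, 0.34 to 0.50), and Aurka at 21.7 and 101 CPM (0.21, 0.10 to 0.40). Mki67, present in all cycling phases, stood at 318 and 449 CPM (0.71, 0.58 to 0.85), and was found in 43 of 66 and 47 of 54 wells. Of the 26 genes, 14 had intervals below 1 and 5 above, namely Ccne2 and the replication helicase genes Mcm2, Mcm3, Mcm4 and Mcm6. The helicase genes Mcm5 and Mcm7 were not among the 5. Mcm2 stood at 193 CPM in uninduced and 115 CPM in induced wells (1.68, 1.25 to 2.24). Mcm3 stood at 213 and 148 CPM (1.44, 1.10 to 1.88), and Mcm4 at 244 and 164 CPM (1.49, 1.16 to 1.91). Ccne2, a cyclin of the entry into S phase, had a ratio of 1.88 (1.17 to 3.01), while Rrm1, a ribonucleotide reductase subunit, had one of 0.70 (0.54 to 0.90).

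**Figure D4:**
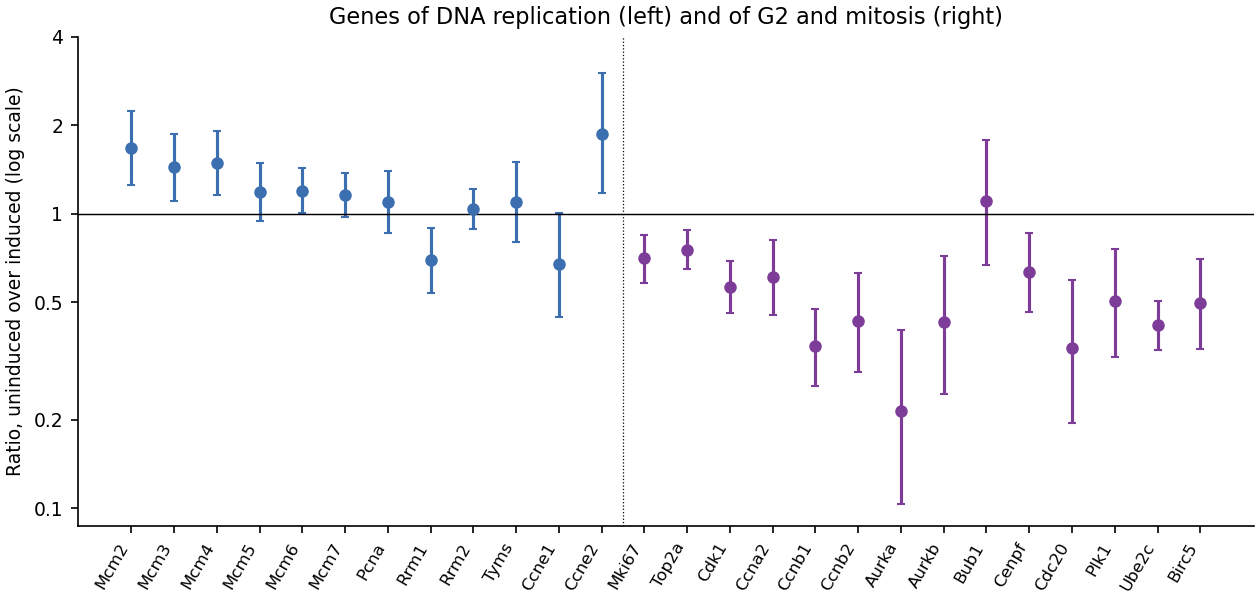
Ratio of pooled CPM in uninduced over induced wells on a log axis, with exact 95% counting intervals, for 12 genes of DNA replication in blue and 14 genes of G2 and mitosis in purple. Of the replication genes, only Mcm2, Mcm3, Mcm4, Mcm6 and Ccne2 lie above 1 with their intervals. On the right, 13 of the 14 genes lie below 1, Aurka lowest at 0.21, with Bub1 as the exception.

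The lower mitotic genes in the plot of cell cycle ratios depended in size on how the classes were split. At 2 per 10000 counts of Wnt4, Pax8 and Lhx1, with the depths nearly equal, Ccnb1 had a ratio of 0.51, Aurka of 0.48, Ube2c of 0.75 and Mki67 of 0.84, while Mcm2 stayed at 1.70. The part of depth in the mitotic genes was not tested further.

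Genes of other kidney lineages were low in the uninduced wells. Of 21 stromal genes measured against the remaining wells, 18 were at least 2-fold lower and none higher, with a median log2 ratio of -1.87. Across all genes in that comparison, 10.3% were lower and 2.44% higher. The summed stromal genes had a lowest value of 4.04, a median of 19.5 and a highest of 89.9 per 10000 in uninduced wells, against 0.978, 88.3 and 317 in remaining wells, so the ranges overlap. Col1a1, a fibrillar collagen chain, stood at 238 CPM in uninduced wells, 269.5 in induced, 481 in epithelial and 1007 in remaining wells (0.24 of the remaining wells, 0.19 to 0.28), and Col3a1 at 384, 334, 628 and 1435 CPM. Crabp1, a retinoic acid binding protein, stood at 179 CPM in uninduced and 629 CPM in remaining wells, and Ebf3, a stromal transcription factor, at 53.2 and 307 CPM (0.17, 0.11 to 0.26). Foxd1, the factor that defines the cortical stroma, was less depleted, with 185 CPM in uninduced, 207 in induced and 417 CPM in remaining wells (0.44 of the remaining wells, 0.35 to 0.55). It was found in 42 of 66 uninduced and 127 of 194 remaining wells, and after thinning in 19.7% and 35.6%, and 36 uninduced wells had both Six2 and Foxd1.

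None of the 12 stromal genes measured against induced wells passed 2-fold, but these ratios moved with the choice of wells. Of the stromal genes with fewer counts, Tbx18 had a ratio of 2.26 (1.00 to 5.23), Postn of 2.26 (0.69 to 7.89) and Acta2 of 2.23 (1.18 to 4.28), the last with 56.0% of its counts in 1 uninduced well. With the 4 of 66 uninduced and 11 of 54 induced wells deeper than 3 times the median left out, the ratio of uninduced to induced wells was 2.88 for Foxd1 and 2.82 for Col3a1, against 0.89 and 1.15 with them. For Col1a1 it was 1.93 without these wells and 0.88 with them.

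Vessel and immune genes were low. All 12 endothelial genes and all 9 measured macrophage and leukocyte genes were at least 2-fold lower than in remaining wells. Their median log2 ratios were -4.22 and -2.93, and across all genes in that comparison 10.3% were lower and 2.44% higher. The macrophage counts that were found lay mostly in wells C9 and D11. Of the 2 erythroid genes measured against remaining wells, Hba-a1, a haemoglobin chain, was at least 2-fold higher and the other was within 2-fold. Of the 3 neural and neural crest genes measured against remaining wells, 2 were at least 2-fold higher and 1 lower, with a median log2 ratio of 1.20. Stmn2 was lower, with 23.6 CPM in uninduced and 84.5 CPM in remaining wells. Ngfr, a neurotrophin receptor, was higher, with 94.5 CPM in uninduced wells, 2.78 times the remaining wells (1.84 to 4.19), and so was Elavl4, a neuronal RNA-binding protein, with 63.0 CPM in uninduced and 27.5 CPM in remaining wells (2.29, 1.40 to 3.72). Des, the muscle filament desmin, stood at 266 CPM in uninduced, 188 in induced and 47.1 in remaining wells, and was found in 43 of the 66 uninduced wells.

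**Figure D5:**
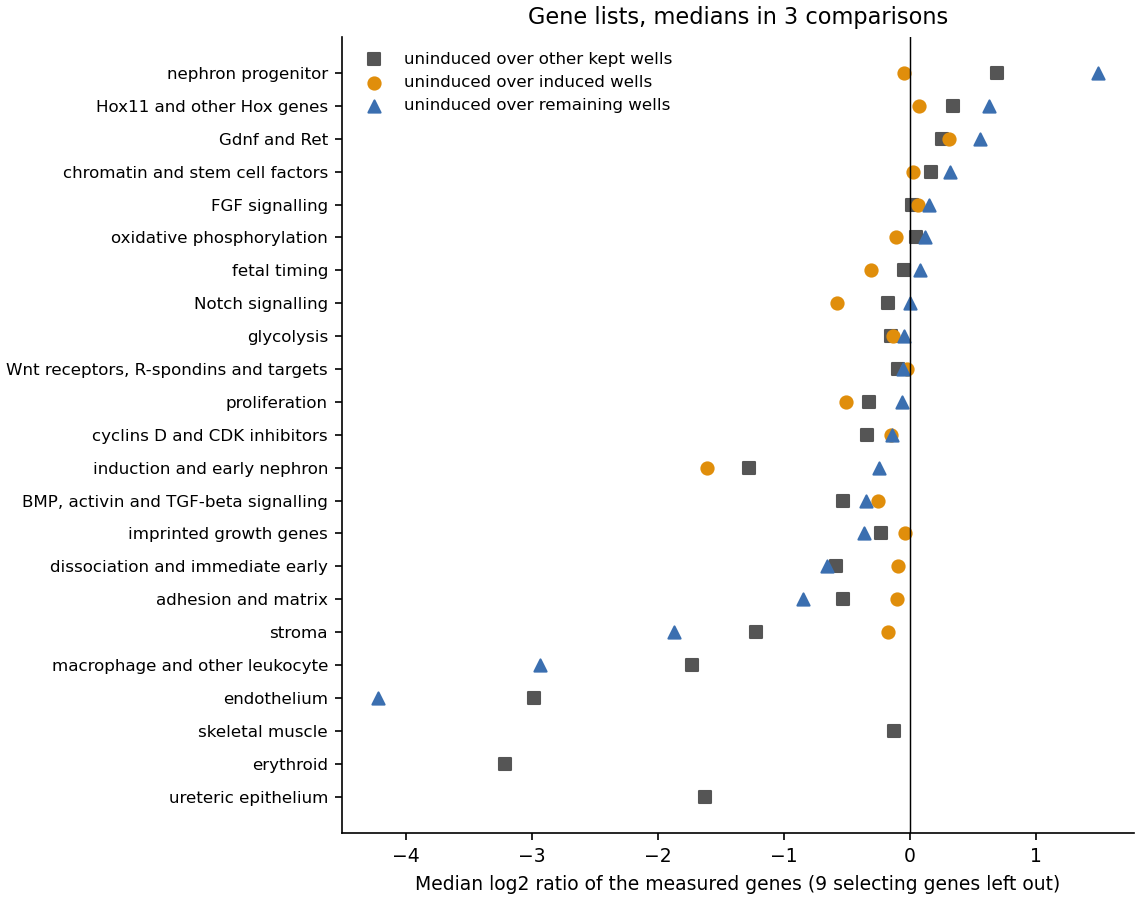
Median log2 ratio of pooled CPM over the measured genes of each list with at least 5 of them, for uninduced wells over all other kept wells (squares), over induced wells (circles) and over remaining wells (triangles), with the 9 genes of the rule left out. The nephron progenitor list lies at 1.49 against remaining wells and at -0.05 against induced wells, and the induction list lies lowest against induced wells, at -1.61.

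The plot of list medians orders the programmes. Against induced wells, the induction list at -1.61, the Notch list at -0.58 and the proliferation list at -0.51 lay furthest below 0, and the Gdnf and Ret list, at 0.31, lay highest of the lists drawn. Against remaining wells the nephron progenitor list lay highest and the endothelial list lowest, with the stromal, macrophage, adhesion and immediate early lists also below 0.

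Against all 271 other kept wells, 136 of 9568 genes (1.42%) were at least 2-fold higher and 780 (8.15%) at least 2-fold lower. The 25 genes with the largest ratios, chosen by the rule for named genes, included Dcx, Met, Moxd1, Rspo1, Robo2, Fgf10 and Meox2, described above. All 25 stayed at least 2-fold higher under every alternative that left at least 20 counts of the gene. After Dcx, at 4.53 and at 12.2 without the deep wells, came Amigo1, an adhesion protein of neurites, with 41.4 CPM in uninduced and 9.58 CPM in other kept wells (4.32, 2.39 to 7.62). Cdhr1, a cadherin of photoreceptors, had a ratio of 4.16 (2.35 to 7.22), and Actn3, the alpha-actinin of fast muscle, of 4.11 (2.77 to 6.03) with counts in 21 of the 66 wells. Kif7, a kinesin-like protein of the primary cilium that regulates Hedgehog signals, had a ratio of 3.68 (2.07 to 6.38), Rasef, a small GTPase, of 3.64 (2.41 to 5.42), and Ankrd6, the ankyrin protein Diversin of the Wnt pathway, of 3.54 (2.21 to 5.56). Nell1, a secreted protein, had a ratio of 2.86 (1.92 to 4.19), and Greb1l, a gene needed for kidney formation in mouse, had the same size of ratio at 2.85 (1.58 to 4.93), whereas its paralogue Greb1 had 0.25 (0.09 to 0.54).

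The 15 genes with the smallest ratios, chosen by the rule for named genes, rested on 1 to 3 counts in the 66 wells. A gene with 0 counts there was set to a floor of 3 counts, which raised its ratio. Genes without a count could therefore rank behind genes with 1, and the 15 need not be the most depleted. Vcam1, an adhesion molecule of stroma and vessels, had 1 count in uninduced and 116 counts in other kept wells, a ratio of 0.06 with an interval of 0.00 to 0.35. Pmp22, a membrane protein of Schwann cells and mesenchyme, had 1 and 102 counts, Matn2, a matrix adaptor, 1 and 74 (ratio 0.10, and 0.60 with a limit of 4 per 10000 in the rule), and Cd38, an enzyme of the cell surface, 2 and 136. Bmp2, with 3 counts in uninduced and 186 in other kept wells, was also among them. Of the 15, 14 stayed at least 2-fold lower under every alternative that left at least 20 counts.

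Positional and chromatin genes differed little from induced wells and leaned higher against remaining wells. The 14 measured Hox genes had a median log2 ratio of 0.63 against remaining wells and 0.08 against induced wells, with none at least 2-fold higher in either comparison. Against remaining wells, 9 of the 14 had intervals above 1 and none below. The chromatin and stem cell factors had medians of 0.32 and 0.02, and 7 of 14 had intervals above 1 against remaining wells and none below. Hoxd11, one of the Hox11 paralogues needed to form the metanephros, stood at 203 CPM in uninduced, 218 in induced and 109 in remaining wells (1.87 of the remaining wells, 1.45 to 2.40). Its paralogue Hoxc11, at 27.6 CPM in uninduced and 57.0 CPM in induced wells, was the exception, over 2-fold lower than in induced wells (0.48, 0.25 to 0.89), though its ratio was 0.82 with the split at 2 per 10000. Of 14 chromatin and stem cell factors measured against remaining wells, Sox11, a factor of immature cells, passed 2-fold. It stood at 1056 CPM in uninduced and 526 CPM in remaining wells (2.01, 1.80 to 2.24). Across all genes in that comparison, 2.44% were at least 2-fold higher. Phf19, a partner of the Polycomb complex that silences genes, had too few counts for that comparison and stood at 59.1 CPM in uninduced and 26.3 CPM in other kept wells (2.25, 1.44 to 3.42). Myc, a transcription factor of growth and renewal, stood at 90.6 CPM in uninduced and 43.8 CPM in remaining wells (2.07, 1.39 to 3.05). With another limit in the rule these ratios were below 2-fold, 1.83 for Phf19 at 4 per 10000 and 1.76 for Myc at 10 per 10000.

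Imprinted growth genes were in part lower. Against remaining wells 5 of 13 were at least 2-fold lower and none higher, where 10.3% of all genes were lower. Meg3, a maternally expressed noncoding RNA, stood at 110.3 CPM in uninduced, 198 in induced and 564 in remaining wells (0.20 of the remaining wells, 0.15 to 0.26, and 0.64 with a limit of 4 per 10000 in the rule), and Igf2, a fetal growth factor, at 2349, 3078 and 3914 CPM. Peg3, a zinc finger gene expressed from the paternal allele, was instead higher than in induced wells, with 1637 CPM in uninduced and 956 CPM in induced wells (1.71, 1.55 to 1.89). Of 11 immediate early and dissociation genes, 5 were at least 2-fold lower than in remaining wells, against the same 10.3% of all genes, among them Fos, with 45.3 CPM in uninduced and 147 CPM in remaining wells, and Jun, with 88.6 and 258 CPM. None of 18 genes of oxidative phosphorylation passed 2-fold in any of the 3 comparisons, with median log2 ratios of 0.05, -0.11 and 0.12 against other kept, induced and remaining wells.

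Within the uninduced class, Six2 was found together with Uncx in 52 wells and with Eya1 in 47. These 3 genes chose the wells, so their joint counts describe the rule and are no finding. Of the genes outside the rule, Pax2 was found with Six2 in 46 wells, Wt1 in 53, Cited1 in 22 and Meox1 in 28. Such counts depend on how often each gene was found, and a link between the genes was not tested. Cited1 and Meox1 were found together in 16 wells, and 30 wells had neither. The 23 wells with Cited1 had a median depth of 10457 counts and the 43 without it 5078, and pooled levels rather than shares of wells are given for that reason. The part of depth in these contrasts was not tested. Six2 stood at 673 CPM in wells with Cited1 and 697 CPM in wells without it. Mki67 stood at 427 CPM (349 to 515) with Cited1 and 210 CPM (158 to 275) without it, Top2a, the topoisomerase of S phase and G2, at 686 and 316 CPM, and Mcm6 at 582 and 316 CPM. Col1a1 stood at 147 CPM (104 to 203) in wells with Cited1 and 327 CPM (261 to 405) in wells without it.

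The 28 wells with 1 count of Wnt4, Pax8 or Lhx1 differed from the 38 with none at a like depth, with medians of 7225 and 6082 counts. Cited1 stood at 67.6 CPM (37.8 to 111) in the wells with that count and 196 CPM (148 to 255) in those without it, and Osr1 at 90.1 (55.0 to 139) and 165 CPM (121 to 219). Robo2 stood at 522 CPM (432 to 627) with it and 768 CPM (668 to 875) without it, and Spock2 at 351 and 473 CPM. Six2 did not follow them, with 734 CPM (626 to 856) with that count and 648 CPM (558 to 748) without it. Neither did Meox1, at 113 CPM with it and 109 CPM without it, nor Pax2, at 378 and 329 CPM. Induction genes showed no common direction, with Ccnd1 at 131 and 119 CPM and Hey1 at 13.5 and 59.5 CPM. Wells with and without Foxd1 (42 and 24 wells, with median depths of 7666 and 4120 counts) differed in collagen, with Col1a1 at 292 CPM (241 to 352) in wells with Foxd1 and 78.0 CPM (37.4 to 144) in wells without it.

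The spread from well to well, over the 63 wells without other lineages, was measured as the variance of counts over that expected from counting alone, for 885 genes with at least 100 counts. Its median was 1.26. Gm42418, a transcript that overlaps ribosomal RNA sequence, spread most, with an index of 447, a median of 379 and a highest value of 3079 per 10000 counts. It was also the most abundant transcript of the class, at 55796 CPM in uninduced and 50746 CPM in other kept wells. Gm10800 followed at 104 with 474 per 10000 in its highest well, then Malat1, a nuclear noncoding RNA, at 10.5. The imprinted genes came next, H19 at 8.02, Mest at 6.52 and Igf2 at 5.82, and Igf2 had a median of 20.2 and a highest value of 62.4 per 10000. Col1a2 at 5.65, Sfrp2, a secreted Wnt antagonist, at 5.48, Cdkn1c, an inhibitor of the cell cycle that is also imprinted, at 5.33, and Ube2c at 4.96 completed the top 10.

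On the cultured plates few wells met the rule. They numbered 4 of 200 kept wells of the E12.5 plate and 4 of 300 of the E11.5 plate, against 66 of 337 without culture of the uncultured plate. The plates differ in stage or genotype as well as in culture, and these cannot be told apart. Cited1 stood at 780.2 CPM in the 4 wells of the E12.5 cultured plate and 23.8 CPM in its other kept wells, and at 415 and 7.88 CPM on the E11.5 cultured plate. Robo2 stood at 843 and 57.0 CPM on the E12.5 cultured plate and at 726 and 85.5 CPM on the E11.5 cultured plate, and Spock2 at 531 and 41.0 CPM and at 519 and 58.0 CPM. Rspo1 stood at 374 and 13.4 CPM on the E12.5 cultured plate, and at 51.9 CPM in the 4 wells of the E11.5 cultured plate, where its ratio to the other kept wells rested on 2 counts (4.33, 0.51 to 16.75). Dcx had 10 counts in 2 of the 4 wells of the E12.5 cultured plate and 1 count in those of the E11.5 cultured plate. Meox2 had no count in any of the 8 wells, and neither did Lgr6. Col1a1 was lower than in the other wells of each plate, with 1501 and 7175 CPM on the E12.5 cultured plate and 3003 and 11204 CPM on the E11.5 cultured plate, and on both plates it was above the 238 CPM of the uncultured uninduced wells.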

How the data were processed

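The authors deposited, per plate, a table of expected counts, transcripts corrected for chance sharing of molecular identifiers, as read from the values, which need not be whole. Per the submitters' processing notes, STAR 2.6.1a, featureCounts 1.5.2 and the GRCm38.p5 build were used, with roles not given in the sources used here. Counts were pooled over the wells of a class, without rounding, and divided by the nuclear-encoded total to give CPM. A gene compared between 2 classes needed at least 50 counts in both together and was called at 2-fold. Ratios carry an exact 95% interval from the split of counts between the classes, and intervals and floors of 3 counts cover counting error only. Against a class at 0 counts, a ratio was bounded with 3 counts over the class. Thinning drew 1000 counts per well without replacement, and no well was too shallow for it.

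The genes named are the 25 highest and 15 lowest ratios to other kept wells and the 12 of each direction to induced wells, among compared genes outside the rule that were found in at least 15% of the wells of the higher class with at most 25% of its counts in 1 well, beside the 388 of 395 listed genes in the table. Members and lists were chosen with earlier results of these data known. The 15 control wells, and on the cultured plates the wells labelled with more than 1 cell, were left out. A column of unassigned reads, 4.21% of the uncultured plate, was also left out. Wells are named by plate position, so names shared by plates mark no shared cells. No doublet caller was run, and wells over 3 times the median count were left out as an alternative. The scripts were tested on simulated data, and ran in Python 3.11.15 with pandas 2.3.3 for tables, numpy 2.4.6 for thinning, scipy 1.17.1 for intervals and matplotlib 3.10.9 for plots. Alternatives changed 1 choice at a time: the limits of the rule, depth, scaling, the count minimum and the wells that stood apart.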

Additional observations from a re-analysis of the deposited data

How the results depend on the processing

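No paired analysis was possible because each group was 1 plate. The results with 1 plate have no replicate check, and the rule rests on few counts in shallow wells. Lgr6 was found in few wells of any class, and its share was not tested between classes. Weighting wells equally gave 302 genes higher than in other kept wells, 150 higher and 209 lower than in induced wells, and a Cited1 ratio of 3.52. Thinning to 1000 counts gave 18 higher and 63 lower than in other kept wells, 3 higher and 2 lower than in induced wells, a Cited1 ratio of 3.52, a Meox1 ratio of 2.40 and 0 wells with Lgr6; fewer counts left fewer genes to measure. The Cited1 ratio was 4.27 without wells over 3 times the median count and 4.09 in wells of 3000 to 20000 counts. A limit of 2 per 10000 on Wnt4, Pax8 and Lhx1 gave 93 genes higher than in induced wells. A minimum of 20 counts gave 325 higher and 1249 lower than in other kept wells and 215 and 335 than in induced wells, and a minimum of 200 counts gave 28, 176, 3 and 10 in the same order. Dlk1, lower than in other kept wells, had a ratio of 1.10 with at least 4 per 10000; the cause was not tested. The limit of 4 per 10000 gave 78 wells, 10 per 10000 gave 50, at least 3 counts gave 53 and at least 3000 counts per well gave 52.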
